A study of Oryza sativa with 9 samples.

Results

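The plastid genome features of rice roots were taken as all features of the deposited expression table whose name opens with LOC_Osp1. They make up 0.178% of the 57931 features of the table: 90 were above 0 in at least 1 library and the other 13 were listed at 0 in all libraries. They were read across 9 root libraries in 3 groups of 3 biological replicates. SR86 SW is Sea Rice 86, a salt-adapted rice strain, grown in salt water. SR86 FW is the same strain grown in fresh water. R1 FW is R1, a rice strain of low salt tolerance that is a hybrid between the subspecies, grown in fresh water. Roots of all groups were taken 1 month after planting. R1 in salt water was not analysed here, and a strain difference below is one between these 2 strains. One sentence of the methods places the strains in the waters the other way round, and the groups here follow the labels. Library names join the group to the replicate number, so SR86 FW1 is replicate 1 of SR86 FW.

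Plastids carry a small genome of their own, which encodes parts of the photosynthetic complexes, part of the plastid ribosome and a plastid RNA polymerase. Most plastid proteins are encoded in the nucleus and imported. Root plastids are mostly not green and carry out parts of lipid, starch and amino acid metabolism. Most plant plastid genomes hold a large inverted repeat, so that the genes in it are present as a pair of identical copies, and pieces of plastid DNA have been copied into nuclear chromosomes. Messenger RNA of plastids is usually without a long poly(A) tail. The libraries were made with a stranded kit that enriches mRNA. The value used here is FPKM, the number of fragments of a transcript scaled by its length and by the fragments mapped in that library.

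The deposited table gives no product for any LOC_Osp1 feature, and 0 of their names were found in the reference gene table, so the features are called by their numbers. A product can be named for some of them only through a nuclear locus that has the same values in all 9 libraries, and equal values are then the only link between them. The software that made the values divides a read between the transcripts it fits, but whether this made the values equal was not tested, since the transcript sequences were not used here. Products of nuclear loci were taken from the gene lists of the study, which hold genes chosen because they differed between these groups. A feature could thus be named only where a partner was on such a list. Of the 46 plastid features with a mean of at least 0.5 FPKM and at least 4 different values, 25 had the same 9 values, to the 2 decimals deposited, as at least 1 other feature. The count was also 25 when values could differ by 0.01 FPKM. Over these 25 features the median size of a set of equal features was 4, and the largest set held 7.

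Equal values tied plastid features to each other in mirrored order of their numbers. LOC_Osp1g00750 equalled LOC_Osp1g01120, LOC_Osp1g00760 equalled LOC_Osp1g01110, LOC_Osp1g00770 equalled LOC_Osp1g01100, LOC_Osp1g00780 equalled LOC_Osp1g01090 and LOC_Osp1g00810 equalled LOC_Osp1g01060. These pairs are counted below as separate features, as the table lists them, and each pair is 1 measurement. Equal values also tied plastid features to 52 nuclear loci, of which 20 were on chromosome 4, 9 on chromosome 10 and 6 on chromosome 7. No mitochondrial feature was among them. If reads were divided among features with equal values, which was not tested, the level of such a plastid feature is a part of the sum over its set. LOC_Osp1g00230 had a mean of 42.9 FPKM over the 9 libraries, and the 4 features with its values summed to a mean of 171.5 FPKM. LOC_Osp1g01040 had a mean of 19.0 FPKM, and the 7 features with its values summed to 133.0 FPKM.

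A product could be named for 5 plastid features. LOC_Osp1g00690 had the values of LOC_Os04g16834 and LOC_Os05g22716, annotated as chloroplast translation initiation factor IF-1, which helps to start protein synthesis on the plastid ribosome. LOC_Osp1g00740 had the values of LOC_Os08g15268, annotated as chloroplast ribosomal protein L22 of the large subunit. LOC_Osp1g00670 had those of LOC_Os04g16838 and LOC_Os10g21332, annotated as chloroplast ribosomal protein S11 of the small subunit. LOC_Osp1g00270 had those of LOC_Os10g38278 and LOC_Os02g24612, annotated as ribosomal protein S2. LOC_Osp1g00390 had those of LOC_Os10g38206, annotated as an NADPH-dependent oxidoreductase. These products belong to the nuclear loci. Products of the plastid genome itself were not matched to numbers here.

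Most plastid features were near 0 in roots and a few carried most of the signal. Beside the 13 features listed at 0 in all 9 libraries, 55 had a mean above 0 but under 1 FPKM, 23 had a mean of 1 to 10 FPKM and 12 had a mean of at least 10 FPKM. The 12 highest made up 77.8% of the summed plastid FPKM. When a feature was taken as expressed from a mean of 1 FPKM over its group, 31 features passed among SR86 SW libraries, 36 among SR86 FW libraries and 27 among R1 FW libraries. Of these, 26 of SR86 SW, 27 of SR86 FW and 26 of R1 FW reached 1 FPKM in every library of the group. By the rule on group means, 21 features were expressed in all 3 groups and 12 in SR86 FW alone. Among the 12, LOC_Osp1g01130 and LOC_Osp1g00380 were above 0 in 1 library only. Some lay near the limit in SR86 SW, as LOC_Osp1g00890 with a mean of 0.957 FPKM and LOC_Osp1g00430 with 0.90 FPKM. Others were well below it there, as LOC_Osp1g00480 with 0.313 FPKM.

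**Figure D1:**
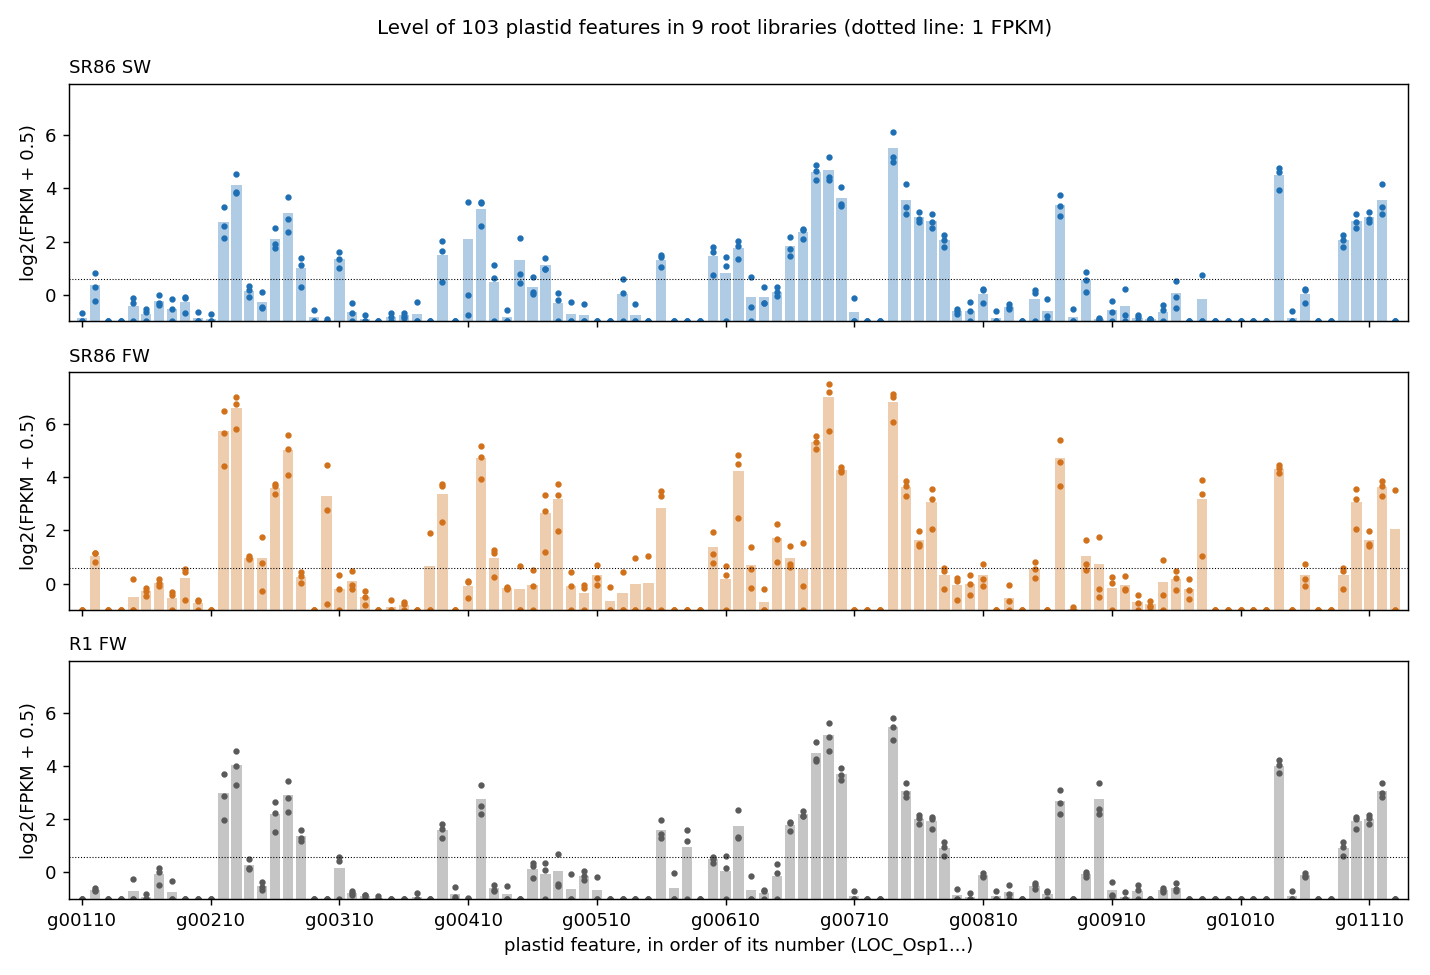
Level of each plastid feature, as log2(FPKM + 0.5), in order of its number, with SR86 SW above SR86 FW and R1 FW. Bars reach the level of the group mean, points are the 3 libraries of the group and the dotted line is 1 FPKM. Some high features have high neighbours by number, while LOC_Osp1g00870 and LOC_Osp1g01040 stand between low features. LOC_Osp1g00690 and LOC_Osp1g00740 are the highest by mean, and most other features lie at the bottom of the scale.

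The highest mean was that of LOC_Osp1g00740, the feature with the values of the L22 locus. It had 35.3, 67.7 and 31.1 FPKM in SR86 SW, 139.4, 129.2 and 66.4 FPKM in SR86 FW and 42.9, 55.3 and 30.8 FPKM in R1 FW. SR86 FW lay above R1 FW in every library, and the lowest SR86 FW library was just under the highest SR86 SW library. LOC_Osp1g00690, with the values of the IF-1 loci, had 19.4, 35.3 and 20.8 FPKM in SR86 SW, 180.6, 145.8 and 52.1 FPKM in SR86 FW and 33.3, 47.8 and 23.2 FPKM in R1 FW. Its SR86 FW libraries lay above all others. These 2 features made up 16.2% and 15.1% of the plastid FPKM summed over the 9 libraries.

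The next 2 by mean differed in how far SR86 FW stood above the other groups. LOC_Osp1g00230 had 13.8, 22.6 and 14.1 FPKM in SR86 SW, 126.4, 106.5 and 55.2 FPKM in SR86 FW and 15.2, 22.9 and 9.18 FPKM in R1 FW, with no overlap between SR86 FW and either other group. LOC_Osp1g00680 had 28.5, 24.8 and 19.1 FPKM in SR86 SW, 38.8, 46.4 and 33.0 FPKM in SR86 FW and 18.5, 29.0 and 17.6 FPKM in R1 FW. SR86 FW was again above the other groups in every library, by a smaller margin. LOC_Osp1g00220, which shares its values with no other feature, had 5.51, 9.25 and 3.84 FPKM in SR86 SW, 88.1, 50.3 and 21.0 FPKM in SR86 FW and 6.71, 12.3 and 3.40 FPKM in R1 FW.

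The other 3 of the 8 highest were LOC_Osp1g01040, LOC_Osp1g00270 and LOC_Osp1g00700. LOC_Osp1g01040 had 26.8, 24.1 and 14.95 FPKM in SR86 SW, 19.7, 21.2 and 17.5 FPKM in SR86 FW and 15.8, 18.2 and 12.8 FPKM in R1 FW. All 3 groups overlapped. LOC_Osp1g00270, with the values of the S2 loci, had 6.69, 12.3 and 4.60 FPKM in SR86 SW, 46.8, 33.1 and 16.2 FPKM in SR86 FW and 6.42, 10.3 and 4.27 FPKM in R1 FW. LOC_Osp1g00700 had 10.2, 16.1 and 9.62 FPKM in SR86 SW, 20.0, 17.7 and 18.5 FPKM in SR86 FW and 12.1, 14.6 and 10.6 FPKM in R1 FW, where SR86 FW lay just above both other groups.

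Summed over all members, the plastid FPKM was higher in SR86 FW than in the other groups. The sums were 274.1, 351.9 and 214.9 FPKM in SR86 SW, 938.8, 783.2 and 406.2 FPKM in SR86 FW and 229.6, 306.7 and 184.8 FPKM in R1 FW. The lowest SR86 FW library was above every library of the other groups. On the log2 scale the sum was lower in SR86 SW than in SR86 FW by a difference of -1.28, and higher in SR86 FW than in R1 FW by 1.51 (exact two-sided permutation test, p = 0.1 for each, the smallest p that 3 against 3 libraries can give). SR86 SW and R1 FW overlapped, with a difference of 0.22 (exact permutation p = 0.5). Plastid features took 0.0345% to 0.0543% of the FPKM of the whole table in SR86 SW, 0.0576% to 0.129% in SR86 FW and 0.0288% to 0.0456% in R1 FW. In a bulk root sample, more plastids or cells of a kind and more plastid RNA per cell cannot be told apart.

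SR86 FW3 stood apart from the other libraries of its group. It was the lowest of its group for 25 of the 36 features expressed there, and SR86 FW1 was the highest for 22. The third library was also the lowest for 22 of 31 features of SR86 SW and for 18 of 27 of R1 FW. The median ratio of the highest to the lowest library of a group was 1.67 for SR86 SW, 2.68 for SR86 FW and 1.43 for R1 FW, on the scale of FPKM + 0.5. Without SR86 FW3, the difference of the log2 sums was -1.64 between SR86 SW and SR86 FW and 1.87 between SR86 FW and R1 FW.

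**Figure D2:**
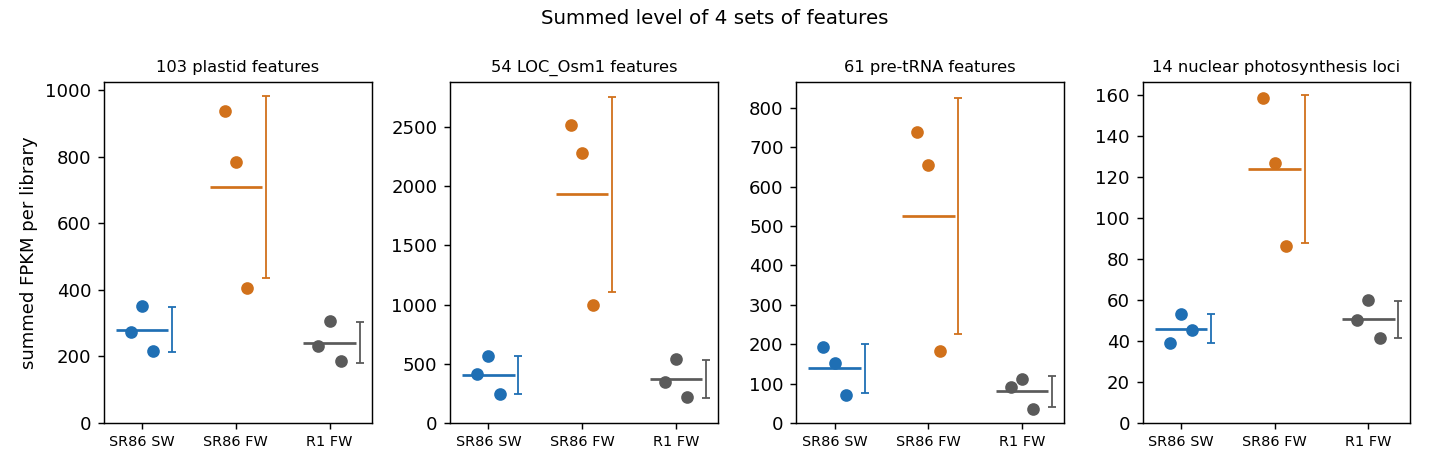
Summed FPKM per library of 4 sets of features, with SR86 SW on the left, then SR86 FW and R1 FW. Points are libraries, horizontal lines are group means and the bar beside each is the SD (n = 3). In all 4 sets the mean of SR86 FW is above the means of both other groups, and the third library of SR86 FW is the lowest of its group.

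The sums of the mitochondrial and pre-tRNA features also averaged highest in SR86 FW. The 54 features named LOC_Osm1, of the mitochondrial genome, summed to 409.5, 567.5 and 243.8 FPKM in SR86 SW, 2518, 2279 and 992.1 FPKM in SR86 FW and 347.2, 540.9 and 222.4 FPKM in R1 FW. The 61 pre-tRNA features summed to 71.4 to 193.7 FPKM in SR86 SW, 182.9 to 739.2 FPKM in SR86 FW and 36.4 to 111.6 FPKM in R1 FW. A list of 14 nuclear loci for photosynthesis proteins (chlorophyll-binding proteins, photosystem subunits, the Rubisco small chain and others) summed to 39.1 to 53.2 FPKM in SR86 SW, 86.5 to 158.9 FPKM in SR86 FW and 41.6 to 59.9 FPKM in R1 FW. None of the 14 was at 0 in any library. These loci were taken from lists of genes that the study had chosen because they differed between these groups, so their direction is no independent evidence. The part of green tissue, of the mitochondrial and small RNA signal, or of the third libraries in the plastid result was not tested.

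Between SR86 FW and each of the other groups, the plastid sum differed by less than the mitochondrial sum did. The ratio of plastid to mitochondrial FPKM was 0.669, 0.620 and 0.882 in SR86 SW, 0.373, 0.344 and 0.409 in SR86 FW and 0.661, 0.567 and 0.831 in R1 FW. The SR86 FW libraries were below all others. The log2 ratio was higher in SR86 SW than in SR86 FW by 0.93 and lower in SR86 FW than in R1 FW, with a difference of -0.86 (exact two-sided permutation p = 0.1 for each, the smallest possible). Between SR86 SW and R1 FW it differed by 0.08 (exact permutation p = 0.7).

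Feature by feature, groups were compared with limma on log2(FPKM + 0.5) over all features of the table whose mean over the 6 libraries reached 0.5 FPKM. A call needed a p adjusted by the Benjamini-Hochberg method that was under 0.05, together with a change of 2-fold or more. Fold changes are on that log2 scale, which understates the change of low features. Where a called feature is said below not to overlap, the call used these same libraries, so this is no further evidence. The comparison of SR86 SW with SR86 FW addresses the water within 1 strain. Of the 49 plastid features tested, 10 were called lower in SR86 SW, where 4.29% of all features tested were called lower, and 6 were called higher, where 8.41% of all were. The 6 higher features hold 4 different sets of values. The other 54 features were below the minimum. The median log2 fold change was -0.66 over the plastid features and 0.17 over all features tested, and 35 of the 49 were below 0. Over the 47 features that were above 0 in both groups the median was -0.64.

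The number of calls depended on single libraries, over the whole table as well. Without SR86 SW1 or without SR86 FW2, limma called 0 plastid features, with 21 and 22 features at an unadjusted p under 0.05. Over all features tested, 22 were then called higher and 38 lower without SR86 SW1, and 171 higher and 187 lower without SR86 FW2, against 1995 and 1017 with all libraries. The total was 2 without SR86 SW2, 9 without SR86 SW3 and 5 without SR86 FW1, against 16 with all libraries, and it was 23 without SR86 FW3. No call changed its direction in these fits. The log2 fold change of LOC_Osp1g00220 ran from -3.41 to -2.38 over them and that of LOC_Osp1g00230 from -2.79 to -2.19. With quantile normalization 4 were called higher and 12 lower, where 1165 of all 23718 features tested were called higher and 1368 lower. The fold changes below are to be read against the median of all features, 0.17, which was 0.01 with quantile normalization and 0.32 when each library was divided by its sum over the nuclear chromosomes.

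Among the called features that were lower in SR86 SW, LOC_Osp1g00480 had 0.56, 0.38 and 0 FPKM in SR86 SW, against 12.7, 9.50 and 3.44 FPKM in SR86 FW, without overlap. Its log2 fold change was -3.38 ± 0.52 (SE, limma adjusted p = 0.015). LOC_Osp1g00980 had 0, 1.16 and 0 FPKM in SR86 SW, against 14.4, 9.77 and 1.55 FPKM in SR86 FW, with a log2 fold change of -3.19 ± 0.83 (adjusted p = 0.041). Both were at or close to 0 in most salt water libraries. The calls of LOC_Osp1g00480 and LOC_Osp1g00980 were kept in 3 and 1 of 6 fits with 1 library left out.

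Higher features also fell in SR86 SW. LOC_Osp1g00220 had a log2 fold change of -2.86 ± 0.54 (SE, limma adjusted p = 0.022) and LOC_Osp1g00230 one of -2.43 ± 0.34 (adjusted p = 0.013). LOC_Osp1g00690, with the values of the IF-1 loci, fell by 2.17 ± 0.48 (adjusted p = 0.03), and LOC_Osp1g00270, with those of the S2 loci, fell by 1.94 ± 0.47 (adjusted p = 0.035). LOC_Osp1g00620 had 3.05, 3.59 and 2.06 FPKM in SR86 SW, against 27.6, 21.8 and 4.99 FPKM in SR86 FW, and fell by 2.18 ± 0.60 (adjusted p = 0.048). LOC_Osp1g00260 had 3.27, 5.21 and 2.92 FPKM in SR86 SW, against 12.2, 13.0 and 9.66 FPKM in SR86 FW, and fell by 1.52 ± 0.25 (adjusted p = 0.018). In each of these called features every SR86 SW library was below every SR86 FW library, which is no evidence beyond the calls. The others called lower were LOC_Osp1g00420 and LOC_Osp1g00650. Calls of LOC_Osp1g00690, LOC_Osp1g00270, LOC_Osp1g00620, LOC_Osp1g00420 and LOC_Osp1g00650 were each kept in 1 of 6 fits with 1 library left out. Those of LOC_Osp1g00220, LOC_Osp1g00260 and LOC_Osp1g00230 were kept in 2, 3 and 4 of 6.

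A few features ran the other way. LOC_Osp1g00670, with the values of the S11 loci, had 3.78, 5.04 and 4.86 FPKM in SR86 SW, against 0, 0.45 and 2.41 FPKM in SR86 FW. It was higher in SR86 SW by 2.17 ± 0.61 on the log2 scale (SE, limma adjusted p = 0.049). LOC_Osp1g00310 had 2.54, 2.04 and 1.49 FPKM in SR86 SW, against 0.38, 0 and 0.76 FPKM in SR86 FW, a log2 fold change of 1.60 ± 0.40 (adjusted p = 0.037). LOC_Osp1g00670 and LOC_Osp1g00310 were called in 4 and 6 of 10 other settings, and in 1 and 2 of 6 fits with 1 library left out. Neither overlapped between the groups.

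The other 4 were 2 mirrored pairs. LOC_Osp1g00760 and LOC_Osp1g01110 each had 6.63, 8.19 and 6.21 FPKM in SR86 SW, against 2.29, 2.14 and 3.43 FPKM in SR86 FW, a log2 fold change of 1.28 ± 0.24 (SE, limma adjusted p = 0.022). LOC_Osp1g00780 and LOC_Osp1g01090 each had 3.71, 3.00 and 4.26 FPKM in SR86 SW, against 0.99, 0.37 and 0.89 FPKM in SR86 FW, a log2 fold change of 1.76 ± 0.30 (adjusted p = 0.018). SR86 SW was above SR86 FW in every library of both pairs. The calls of LOC_Osp1g00760 and LOC_Osp1g00780, and of their equals, were kept in 2 and 3 of 6 fits with 1 library left out. Between them by number, LOC_Osp1g00770 had a log2 fold change of -0.17 (adjusted p = 0.77). Of the 5 features with a named product, LOC_Osp1g00740 missed the call with -1.32 ± 0.38 (adjusted p = 0.053), and LOC_Osp1g00390 missed it with -1.87 ± 0.53 (adjusted p = 0.05, just above the threshold before rounding).

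**Figure D3:**
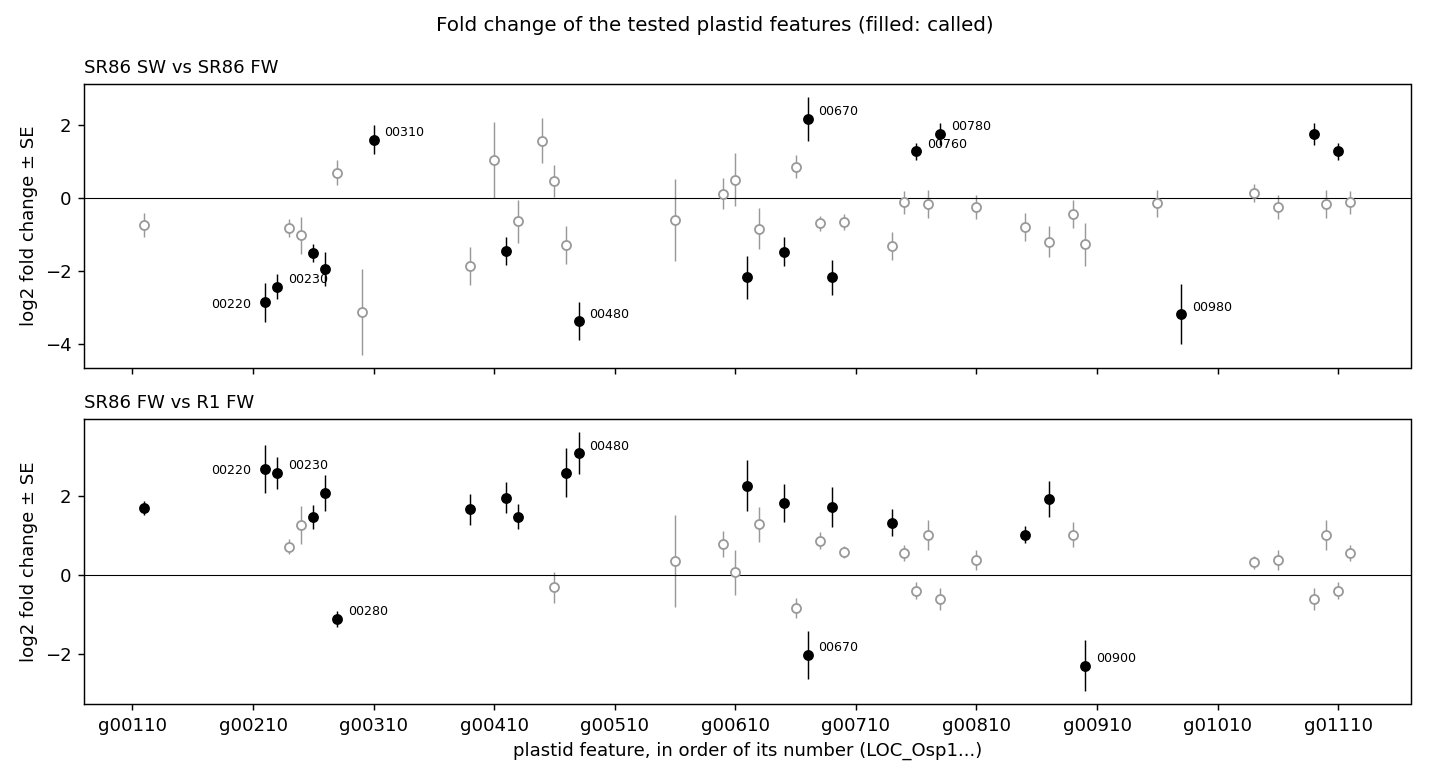
Log2 fold change of each tested plastid feature in order of its number, with its SE, for SR86 SW against SR86 FW (above) and SR86 FW against R1 FW (below). Filled points were called, and features listed at 0 in all 3 libraries of a group are left out. Of the called features in the upper panel 10 lie below 0 and 6 above, and LOC_Osp1g00670 lies on the opposite side of 0 from most called features in both panels.

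The comparison of SR86 FW with R1 FW addresses the strain within fresh water. It shares the SR86 FW libraries with the comparison above, so a high SR86 FW library enters both. Of the 46 plastid features tested, 17 were called higher in SR86 FW, where 6.85% of all features tested were called higher, and 3 were called lower, where 7.22% of all were. The median log2 fold change was 1.02 over the plastid features and -0.03 over all features tested, and 36 of the 46 were above 0. The mitochondrial features had 19 of 38 called higher, with a median of 1.65. Beside the main total of 20 plastid calls, the total was 12 without SR86 FW1, 7 without SR86 FW2, 3 without R1 FW1, 13 without R1 FW2 and 5 without R1 FW3, and it was 26 without SR86 FW3. Over all features tested, calls were 921 higher and 725 lower without R1 FW1, against 1588 and 1673 with all libraries.

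LOC_Osp1g00480 had 12.7, 9.50 and 3.44 FPKM in SR86 FW, against 0.21, 1.13 and 0.24 FPKM in R1 FW. Its log2 fold change was 3.08 ± 0.53 (SE, limma adjusted p = 0.0096), and the call was lost only without R1 FW3. LOC_Osp1g00980 had 14.4, 9.77 and 1.55 FPKM in SR86 FW and was listed at 0 in all 3 R1 FW libraries, so no fold is given (limma adjusted p = 0.012). LOC_Osp1g00470 had 9.45, 6.03 and 1.79 FPKM in SR86 FW, against 0.56, 0.79 and 0 FPKM in R1 FW, a log2 fold change of 2.59 ± 0.61 (adjusted p = 0.024). These features were at or near 0 in R1 roots. With 1 library left out, the calls of LOC_Osp1g00980 and LOC_Osp1g00470 were kept in 4 and 2 of 6 fits.

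Among the abundant features, LOC_Osp1g00220 was higher in SR86 FW than in R1 FW by 2.69 ± 0.61 on the log2 scale (SE, limma adjusted p = 0.022). LOC_Osp1g00230 was higher by 2.58 ± 0.41 (adjusted p = 0.0074), with the call kept whichever library was left out. LOC_Osp1g00620 was higher by 2.26 ± 0.65 (adjusted p = 0.042) and LOC_Osp1g00270 by 2.07 ± 0.45 (adjusted p = 0.019). LOC_Osp1g00420 had 35.7, 26.2 and 14.8 FPKM in SR86 FW, against 5.17, 9.30 and 4.06 FPKM in R1 FW, and was higher by 1.96 ± 0.40 (adjusted p = 0.016). All 5 were without overlap between the groups, which is no evidence beyond their calls on the same libraries. With 1 library left out, the call of LOC_Osp1g00620 was kept in 1 of 6 fits. Those of LOC_Osp1g00220, LOC_Osp1g00270 and LOC_Osp1g00420 were kept in 3 of 6.

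The features with named products did not all move one way. Their products came from lists of genes chosen for differing between these groups, so the directions are no independent evidence. LOC_Osp1g00690, of the IF-1 loci, was higher in SR86 FW than in R1 FW by 1.72 ± 0.50 (SE, limma adjusted p = 0.043), LOC_Osp1g00740, of the L22 locus, by 1.33 ± 0.34 (adjusted p = 0.029) and LOC_Osp1g00390 by 1.66 ± 0.40 (adjusted p = 0.026). LOC_Osp1g00390 had 12.7, 12.3 and 4.47 FPKM in SR86 FW, against 2.60, 2.98 and 1.97 FPKM in R1 FW. LOC_Osp1g00670, of the S11 loci, had 0, 0.45 and 2.41 FPKM in SR86 FW, against 4.43, 3.84 and 3.84 FPKM in R1 FW, and was lower by a log2 fold change of -2.02 ± 0.60 (adjusted p = 0.047). Every SR86 FW library of LOC_Osp1g00670 was below every R1 FW library. With 1 library left out, the calls of LOC_Osp1g00690, LOC_Osp1g00390 and LOC_Osp1g00670 were kept in 1 of 6 fits, and that of LOC_Osp1g00740 in 2.

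The other features called lower in SR86 FW were LOC_Osp1g00280 and LOC_Osp1g00900, neither of which shares its values with another feature. LOC_Osp1g00280 had 0.73, 0.84 and 0.51 FPKM in SR86 FW, against 2.55, 1.92 and 1.76 FPKM in R1 FW, a log2 fold change of -1.11 ± 0.21 (SE, limma adjusted p = 0.013). LOC_Osp1g00900 had 0.20, 0.37 and 2.88 FPKM in SR86 FW, against 4.65, 4.07 and 9.81 FPKM in R1 FW, a log2 fold change of -2.29 ± 0.64 (adjusted p = 0.04). In both, the groups did not overlap. With 1 library left out, the calls of LOC_Osp1g00280 and LOC_Osp1g00900 were kept in 4 and 1 of 6 fits. Of the abundant features, LOC_Osp1g01040 differed by 0.32 ± 0.16 (adjusted p = 0.17), and LOC_Osp1g00680 and LOC_Osp1g00700 stayed under 2-fold with 0.87 ± 0.22 and 0.59 ± 0.15.

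**Figure D4:**
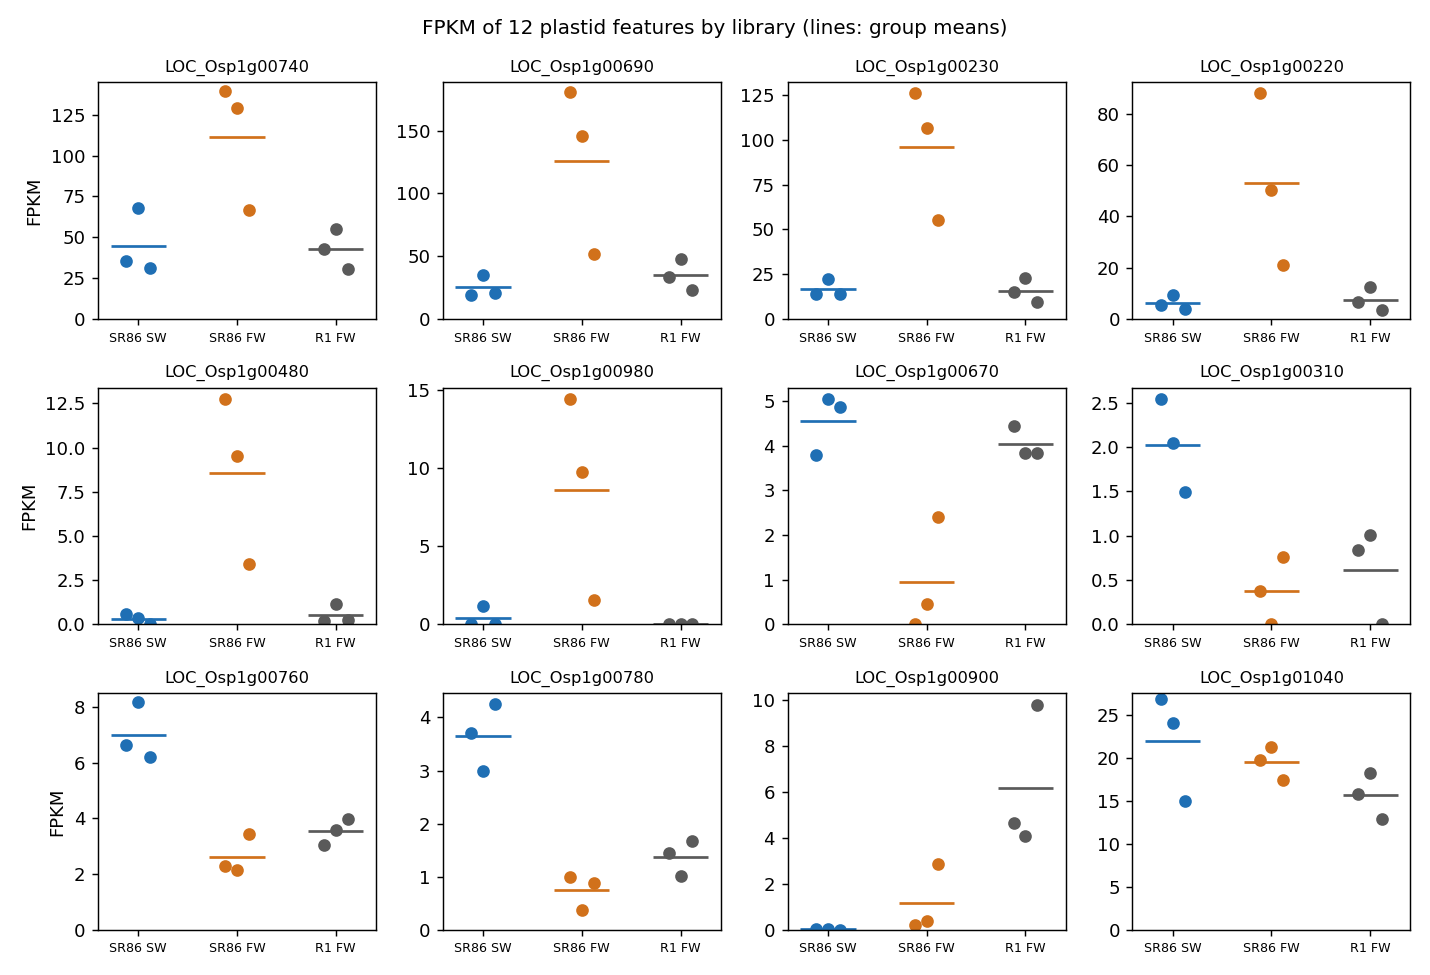
FPKM of 12 plastid features by library, each panel with its own scale from 0, with SR86 SW on the left, then SR86 FW and R1 FW. Points are libraries and lines are group means. The first 6 panels have their highest mean in SR86 FW, LOC_Osp1g00670, LOC_Osp1g00310, LOC_Osp1g00760 and LOC_Osp1g00780 have their lowest mean there, LOC_Osp1g00900 is highest in R1 FW, and the groups of LOC_Osp1g01040 overlap.

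SR86 SW and R1 FW differ in both strain and water, so that comparison stands only beside the other 2. Of the 37 plastid features tested, 4 were called higher in SR86 SW, where 12.2% of all features tested were called higher, and 1 was called lower, where 7.29% of all were. The median log2 fold change was 0.43 over the plastid features and 0.12 over all. The feature called lower was LOC_Osp1g00900, with 0.05, 0.03 and 0 FPKM in SR86 SW, against 4.65, 4.07 and 9.81 FPKM in R1 FW (log2 fold change -3.57 ± 0.32 SE, limma adjusted p = 0.00056). It was near 0 in SR86 roots in salt water and was called whichever library was left out. LOC_Osp1g00780 and LOC_Osp1g01090, the mirrored pair, had 3.71, 3.00 and 4.26 FPKM in SR86 SW, against 1.44, 1.02 and 1.68 FPKM in R1 FW, a log2 fold change of 1.15 ± 0.20 (adjusted p = 0.0069). The others called higher were LOC_Osp1g00450, listed at 0 in all R1 FW libraries, and LOC_Osp1g00470. With quantile normalization 1 feature was called higher and 1 lower, where 2213 of all 23800 features tested were called higher and 2200 lower.

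Set against the median plastid feature of the same library, the features spread widely. For this the median of log2(FPKM + 0.5) over the 47 plastid features with a mean of at least 0.5 FPKM was taken from each value, as a description with no test. Values of features near 0 depend on the added 0.5. Against SR86 FW, the deviation was higher in SR86 SW by 2.22 for LOC_Osp1g00670 and by 1.81 for the pair LOC_Osp1g00780 and LOC_Osp1g01090. It changed by -3.33 for LOC_Osp1g00480, -3.14 for LOC_Osp1g00980 and -3.08 for LOC_Osp1g00300. Between SR86 FW and R1 FW it was higher in SR86 FW by 2.74 for LOC_Osp1g00480. LOC_Osp1g00980 and LOC_Osp1g00300 ranked above it, but both were listed at 0 in all R1 FW libraries, so no difference is given. It changed by -2.64 for LOC_Osp1g00900 and -2.37 for LOC_Osp1g00670. LOC_Osp1g00580 was the other low one. It was listed at 0 in all SR86 libraries and had 1.78, 2.48 and 0 FPKM in R1 FW. LOC_Osp1g00300 rested on part of its group, with 0, 0.03 and 0 FPKM in SR86 SW, 0.09, 21.6 and 6.30 FPKM in SR86 FW and 0 in all 3 R1 FW libraries.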

How the data were processed

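Root RNA was sequenced in 9 libraries, 3 a group. The authors mapped the reads to the MSU6 rice transcripts with Bowtie2, estimated expression with RSEM and deposited FPKM values rounded to 2 decimals. They also name a normalization by the trimmed mean of M-values. Whether the deposited FPKM carry that normalization was not tested. Whether strand was used in counting is not given in the sources used here. CASAVA 1.8 is also named in the submitters' processing notes. All 9 columns were matched to a library by their labels. The deposited FPKM give no read totals. Where few reads fall on a feature its value is a multiple of that of 1 read, and the most frequent ratio of such values gave depths of 1.74 to 2.40 for SR86 SW, 0.953 to 1.35 for SR86 FW and 1.00 to 1.66 for R1 FW, relative to R1 FW1. The study gives only an approximate read number per sample, so the exact depth of each library is unknown. This limits what values near 0 can show. By the estimate above the SR86 SW libraries were the deeper ones, but it rested there on 38 to 45 of 277 to 293 features.

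Features with a mean of at least 0.5 FPKM were fitted with limma 3.58.1 in R 4.3.3 (trend of variance on mean), and p-values were adjusted over all features tested. The study's own test needs counts and was not run. The methods of the study call the libraries biological replicates, and their titles name no further source. The limma p-values set a group difference against the spread between these samples, moderated over features. Values in every library are given for the 8 highest features by mean, for the 8 largest called changes in the main direction and every call in the other (SR86 SW against SR86 FW, SR86 FW against R1 FW), for features with an annotated partner and for the 3 highest and 3 lowest deviations. The members, lists and rules were chosen with earlier results of these data known. On simulated data limma recovered 60% (SR86 SW against SR86 FW, 23718 features), 77.5% (SR86 FW against R1 FW, 23168) and 89.5% (SR86 SW against R1 FW, 23800) of 200 features changed 4-fold, with 9.8%, 7.2% and 3.2% of calls false. The simulation changed far fewer features than were called in the data and drew each value independently, so these shares do not describe the calls above. Alternatives were the pseudocount (0.1, 1), the filter, 3 scalings, all libraries in 1 fit, a replicate block, summed identical features and each library left out. Python 3.11.15 with pandas 2.3.3, numpy 2.4.6 and matplotlib 3.10.9 was used. Sequences were not analysed here.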

Additional observations from a re-analysis of the deposited data

How the results depend on the processing

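The sums and their ratios kept their direction under every alternative run in the comparisons of SR86 SW with SR86 FW and of SR86 FW with R1 FW. Left out 1 at a time, libraries gave log2 differences of the plastid sum of -1.64 to -1.04 for SR86 SW against SR86 FW, 1.26 to 1.87 for SR86 FW against R1 FW and 0.05 to 0.42 for SR86 SW against R1 FW, and of the plastid to mitochondrial ratio of 0.78 to 1.04, -0.99 to -0.71 and -0.07 to 0.22 in the same comparisons. Without the 3 highest features on each side the ratio differed by -1.33 for SR86 FW against R1 FW and by -0.24 for SR86 SW against R1 FW, where the main value was 0.08.

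With a library left out, the counts of calls moved as follows. For SR86 SW against SR86 FW the range was 0 to 23 in all, 0 to 7 higher and 0 to 16 lower. For SR86 FW against R1 FW it was 3 to 26 in all, 3 to 23 higher and 0 to 3 lower. For SR86 SW against R1 FW it was 4 to 6 in all, 3 to 5 higher and 1 to 2 lower. Calls over all features tested moved as well. Without SR86 FW3 they were 2578 higher and 1244 lower for SR86 SW against SR86 FW, and 2069 and 2692 for SR86 FW against R1 FW. Without SR86 SW3 they were 3728 higher and 2005 lower for SR86 SW against R1 FW. With no filter, 9 features in all and 5 lower were called for SR86 SW against SR86 FW, and 1 lower for SR86 FW against R1 FW. Over all features, no filter gave 1109 higher and 695 lower of 37717, and 1552 and 1634 of 36441, in the same order. For SR86 SW against R1 FW a pseudocount of 1 and quantile normalization each gave 2 calls, 1 of them higher. Over all features these settings gave 2362 higher and 1486 lower, and 2213 and 2200.

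With replicate number as a replicate block, 2 features were called higher and 11 lower for SR86 SW against SR86 FW, 19 and 3 for SR86 FW against R1 FW and 5 and 1 for SR86 SW against R1 FW. Over all features the block gave 1277 higher and 771 lower, 1689 and 1800, and 3085 and 1737, in the same order. The labels give no shared source for equal numbers, and the correlation of deviations from the group means for libraries 1, 2 and 3 was -0.057, 0.011 and 0.153 between SR86 SW and SR86 FW, -0.034, 0.221 and 0.256 between SR86 FW and R1 FW, and -0.031, 0.263 and 0.281 between SR86 SW and R1 FW. Libraries with different numbers ran from -0.385 to 0.217. Against R1 FW, equal numbers 2 and 3 gave values above that range. The main fits did not take the numbers as pairs, since not every pair of equal number was above 0.1. A link between libraries of equal number was not tested further. LOC_Osp1g01040, at 0.13 between SR86 SW and SR86 FW, was -0.04 with median-ratio size factors and -0.03 to 0.38 with a library left out, the lowest without SR86 SW1, and the cause was not tested. No called feature changed sign.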

Other observations

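Some plastid features had an uneven signal within a group, some of them in a single library. The ones named in this paragraph were chosen after their values were seen. LOC_Osp1g01130 had 10.9 FPKM in SR86 FW1 and was listed at 0 in the other 8 libraries. LOC_Osp1g00380 had 3.19 FPKM in SR86 FW3 and was listed at 0 elsewhere. LOC_Osp1g00410 had 10.8, 0.50 and 0.09 FPKM in SR86 SW, 0.54, 0.56 and 0.19 FPKM in SR86 FW and at most 0.01 FPKM in R1 FW. LOC_Osp1g00560 had 10.6 and 9.21 FPKM in SR86 FW1 and SR86 FW2 and was listed at 0 in SR86 FW3, while it had 2.29, 1.54 and 2.17 FPKM in SR86 SW and 1.93, 3.43 and 2.19 FPKM in R1 FW. In all, 9 plastid features were above 0 in 1 library only.

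Nuclear loci annotated with products that plastid genomes encode were read as well. A list of 26 loci was picked from the study's gene lists, and 8 of them have the values of a plastid feature. Among the 8, LOC_Os10g38206 is an exception, since its annotation as an NADPH-dependent oxidoreductase does not itself name a plastid genome product. Whether the study's lists hold further such loci was not tested. Some of the 26 share their values with each other. The lists hold genes chosen because they differed between these groups, so the directions are no independent evidence. LOC_Os10g21268, annotated as the Rubisco large chain, which fixes carbon dioxide in leaves, had 5.76, 3.99 and 1.11 FPKM in SR86 SW, 46.5, 36.1 and 9.89 FPKM in SR86 FW and 3.07, 5.47 and 1.04 FPKM in R1 FW. LOC_Os04g16722, annotated as ycf68, had 74.3, 79.1 and 55.8 FPKM in SR86 SW, 501.3, 318.9 and 153.3 FPKM in SR86 FW and 159.2, 255.1 and 127.4 FPKM in R1 FW. LOC_Os01g57956, annotated as chloroplast ribosomal protein L14, had 4.18, 4.11 and 9.14 FPKM in SR86 SW, was listed at 0 in SR86 FW and had 2.40, 0 and 7.10 FPKM in R1 FW.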
